A study of Mus musculus with 2 samples.

Results

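The 10 genes described here encode the subunits of the BAF chromatin remodelling complex that are exchanged when neural progenitors become neurons, together with the 2 ATPases around which the complex is built. They were chosen by name for their known roles, and they are 10 of the 43346 Ensembl genes measured. All 10 were found by symbol. The members are Actl6b and Actl6a, the double PHD finger genes Dpf1, Dpf3, Dpf2 and Phf10, Ss18l1 and Ss18, and Smarca2 and Smarca4.

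The libraries were made from the midbrain of B6NCrl mouse embryos at 16.5 days, pooled from healthy male and female embryos, and the labels name no treatment or mutation. Replicate 1 is a pool of embryos whose number the labels do not give, replicate 2 is a pool of 37 embryos, and both carry the same donor identifier. From each pool 10 ng of total RNA above a lower size limit was sequenced, with spike-in RNAs. There is 1 group with n = 2 pools, so no comparison between conditions exists, no test was run, and all that follows is description.

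BAF complexes, the mammalian SWI/SNF complexes, use the energy of ATP to slide or evict nucleosomes and so open or close regulatory DNA. In dividing neural progenitors the complex carries the actin-related protein BAF53a (Actl6a), BAF45a or BAF45d (Phf10, Dpf2) and SS18. As cells leave the cycle to become neurons these are replaced by BAF53b (Actl6b), BAF45b or BAF45c (Dpf1, Dpf3) and CREST (Ss18l1), the neuron-specific form being known for its part in dendrite growth and memory. In the mouse the microRNAs miR-9* and miR-124 are known to repress Actl6a through its 3′ untranslated region in postmitotic neurons, and REST is known to repress both microRNAs in cells outside the neuronal lineage.

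In both pools the neuronal gene stood above its progenitor counterpart for Actl6b against Actl6a, Dpf1 against Phf10 and Ss18l1 against Ss18. Dpf3 exceeded Phf10 in TPM but lay below Dpf2. Levels are given in TPM, a transcript abundance corrected for length, which lets genes be set side by side. The 4 neuronal subunit genes summed to 526 TPM in replicate 1 and 524 TPM in replicate 2 (525 ± 0.941, SD, n = 2). The 3 progenitor subunit genes Actl6a, Phf10 and Ss18 summed to 102 and 82.6 TPM (92.4 ± 13.9). Dpf2, which is broadly expressed and also counted as a progenitor subunit, is not in that sum and had 101 and 87.2 TPM. The neuronal sum was therefore nearly the same in both pools, while the sum of Actl6a, Phf10 and Ss18 was higher in replicate 1. In bulk tissue, fewer cells of a type and less RNA per cell cannot be told apart.

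The order of the levels was Actl6b, Dpf1, Smarca2, Smarca4, Dpf2, Ss18l1, Actl6a, Ss18, Dpf3 and Phf10, from high to low in TPM over all transcripts. The place of Smarca2 above Smarca4 did not hold for coding forms, which averaged 68.7 TPM for Smarca2 and 111.5 TPM for Smarca4. Nor did that of Dpf2 above Ss18l1, with coding forms averaging 50.4 TPM for Dpf2 and 60.8 TPM for Ss18l1. With forms of at least 1000 bases only, Dpf1 had 103.3 and 106.35 TPM and lay below Smarca4, at 115.5 and 107.5 TPM. No neighbours in this order overlapped over the 2 libraries. The deposited credibility intervals did overlap for 4 neighbouring pairs when taken over both libraries, namely Dpf1 with Smarca2, Smarca4 with Dpf2, Ss18l1 with Actl6a, and Dpf3 with Phf10. The median of the members was 82.1 TPM in replicate 1 and 73.0 TPM in replicate 2. The 13333 protein-coding genes with at least 1 TPM in both libraries had medians of 20.5 and 20.0 TPM.

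**Figure D1:**
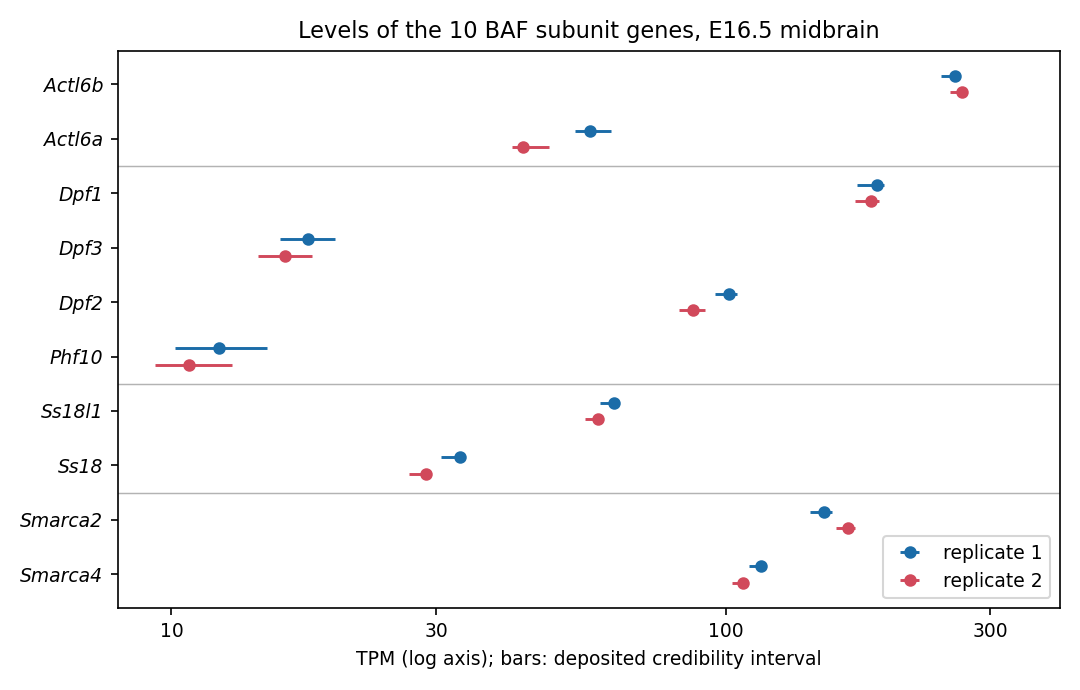
TPM of the 10 genes on a log axis, with a point for each library and a bar for the deposited credibility interval, grouped by subunit family. Actl6b lies at 258 and 267 TPM and Phf10 at 12.2 and 10.8 TPM, and for Smarca4 and Ss18l1 the deposited TPM lies just above the upper end of its own interval in both libraries.

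Actl6b (ENSMUSG00000029712.10, chr5:137553517-137569582, plus strand) encodes the actin-related protein found in neuronal BAF only. It had 258 TPM in replicate 1 and 267 TPM in replicate 2 (263 ± 5.81), with credibility intervals of 244 to 259 and 253 to 268 TPM. This was the highest level among the members and ranked above 95.9% of the detected protein-coding genes. It rested on 6372 and 7661 expected counts, both of them whole numbers, and no 31-base word of its transcripts occurs in another annotated gene. The protein-coding genes nearest to it in level over both libraries were Ak6 with 259.7 and 264 TPM, Stx7 with 261 and 270.1 TPM and Srp14 with 260.4 and 262 TPM, a likeness of level that carries no statement on function.

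A single transcript made up most of Actl6b. The coding form Actl6b-205, of 1592 bases, held 85.5% and 85.9% of the gene's TPM (85.7% ± 0.276). Of the other forms, a retained-intron form of 405 bases had 7.44% and 6.66%. The form annotated for nonsense-mediated decay, the pathway that degrades transcripts with early stop codons, was at 1.06 TPM in replicate 1 and listed at 0 in replicate 2.

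Actl6a (ENSMUSG00000027671.10, chr3:32706298-32726973, plus strand) encodes BAF53a, the actin-related protein of progenitor BAF that also belongs to other remodelling and acetyltransferase complexes. It had 56.8 TPM in replicate 1 and 43.0 TPM in replicate 2 (49.9 ± 9.81), with credibility intervals of 53.4 to 62.0 and 41.1 to 47.9 TPM that do not overlap. Its rank was 73.4% among detected protein-coding genes. The nearest protein-coding genes in level were Dlk1 with 55.8 and 42.2 TPM, St7 with 59.0 and 43.0 TPM and Ntng1 with 55.5 and 43.6 TPM.

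The ratio of Actl6b to Actl6a, taken within each library, was 4.55-fold in replicate 1 and 6.21-fold in replicate 2. On the log2 scale this is 2.19 and 2.63, with a mean of 2.41 ± 0.32 (n = 2), or 5.31-fold. Actl6b made up 82.0% and 86.1% of the summed TPM of both genes (84.1% ± 2.93). The direction held in both libraries and the distance between the genes was several times the difference between pools for either gene.

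The Actl6a reads were less cleanly assigned than those of Actl6b. Its expected counts, 1705 and 1580, were not whole, and 11.9% of the 31-base words of its transcripts occur in other genes. Most of these words lie in Mrpl47, a mitochondrial ribosomal protein gene on the opposite strand that overlaps Actl6a by 1577 bases and had 22.6 and 19.7 TPM. The sources used here do not give whether counting used strand, so reads of the shared stretch cannot be told apart. The coding form Actl6a-201 held 63.4% and 70.7% of the TPM (67.1% ± 5.16), and the retained-intron form Actl6a-207 held 18.3% and 21.02% (19.7% ± 1.90).

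The untranslated region behind the known microRNA repression of Actl6a can be shown beside these levels. The 3′ untranslated region of Actl6a-201 is 371 bases long in GENCODE M21 and holds 1 match to the seed of miR-9*, which is now named mmu-miR-9-3p. The stretch lies at chr3:32726628-32726657 (GRCm38, plus strand), with the match at base 38 of the region. The mature microRNAs are from RefSeq (GRCm38.p6) and the capitals mark the seed, bases 2 to 8. In the Actl6a stretch the capitals mark the 7 bases complementary to the miR-9-3p seed.
mmu-miR-9-3p: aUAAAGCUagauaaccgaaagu
Actl6a site: ctcaacgtctgtAGCTTTAgtacactcagg
mmu-miR-9-5p: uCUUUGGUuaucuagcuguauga
The other arm, mmu-miR-9-5p, comes from the same hairpins and has a different seed, and both arms are encoded by 3 genes on chromosomes 3, 7 and 13.

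The letters searched, on the transcript strand only, were AGCTTTA for miR-9-3p and ACCAAAG for miR-9-5p. No search was made for miR-124, whose mature sequence was not at hand, so its matches in the Actl6a region are not known here. Among 891 annotated 3′ untranslated regions within 20% of the length of that of Actl6a, 28 (3.14%) hold AGCTTTA. The Actl6a region does not hold ACCAAAG. Neither run of letters occurs in the 3′ untranslated region of the leading coding form of Actl6b, Dpf1, Dpf3, Dpf2, Phf10, Ss18l1 and Smarca4. For Ss18l1, whose region is 2843 bases long, 22.5% and 21.1% of regions of like length hold the match for miR-9-3p and for miR-9-5p. For the other genes of this list the shares ran from 0.36% (Phf10, miR-9-3p) to 11.9% (Dpf2, miR-9-5p). Most regions of like length thus lack either match, and its absence says nothing particular of these genes. Ss18 and Smarca2 were not searched. A match describes these letters and is not a measured site of action.

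The host transcripts of both microRNAs were detected. Mir9-3hg had 22.5 and 28.7 TPM, and C130071C03Rik, the host of Mir9-2, had 32.1 and 32.8 TPM. Mir124a-1hg had 68.5 and 62.1 TPM, and Mir124-2hg had 90.1 and 80.9 TPM. Rest, the repressor of neuronal genes, was low at 4.06 and 4.12 TPM, as was its cofactor Rcor1 at 4.47 and 3.67 TPM, while the cofactor Rcor2 had 16.9 and 14.8 TPM. Host transcript levels are not levels of the mature microRNAs, which these libraries do not measure.

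Dpf1 (ENSMUSG00000030584.9, chr7:29303951-29318243, plus strand) encodes BAF45b, a neuronal subunit whose paired PHD fingers read histone H3 tails. It had 187 TPM in replicate 1 and 183 TPM in replicate 2 (185 ± 2.75), above 93.7% of detected protein-coding genes. Dpf3 (ENSMUSG00000021221.11, chr12:83213745-83487716, minus strand), the other neuronal gene of the family, encodes BAF45c and is also known from heart and muscle development. It had 17.7 and 16.0 TPM (16.8 ± 1.16), above 44.9%. The neuronal pair was thus very unequal, with Dpf1 11.0-fold above Dpf3 (log2 3.46 ± 0.08).

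Phf10 (ENSMUSG00000023883.9, chr17:14945009-14961273, minus strand) encodes BAF45a, a subunit of the PBAF form of the complex that is known to be needed for progenitor proliferation. It had 12.2 and 10.8 TPM (11.5 ± 0.990), the lowest level among the members and above 35.2% of detected protein-coding genes. Dpf2 (ENSMUSG00000024826.10, chr19:5896516-5913010, minus strand) encodes BAF45d, which is broadly expressed and is counted among the progenitor subunits in the original scheme. It had 101 and 87.2 TPM (94.3 ± 10.1). Phf10 and Dpf2 therefore stood far apart, Dpf2 being 8.22-fold higher (log2 3.04 ± 0.03).

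Dpf1 plus Dpf3 stood 16.8-fold above Phf10 in replicate 1 and 18.5-fold in replicate 2 (log2 4.14 ± 0.10). Almost all of this came from Dpf1, since Dpf1 alone was 16.2-fold above Phf10 and Dpf3 alone 1.47-fold (log2 0.56 ± 0.03). The place of Dpf3 above Phf10 did not hold by expected counts in replicate 2. These were 477 and 483 for Dpf3 and 460 and 518 for Phf10. Against Dpf2 the neuronal sum was 2.02-fold and 2.28-fold higher (log2 1.10 ± 0.13). Against Phf10 and Dpf2 together it was 1.80-fold and 2.03-fold higher (log2 0.94 ± 0.12). Of the TPM of all 4 family members, Dpf1 held 60.2% ± 2.03, Dpf2 30.6% ± 1.78, Dpf3 5.47% ± 0.111 and Phf10 3.72% ± 0.141. The size of the neuronal excess in this family thus depends on which gene is taken as the progenitor member.

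The Phf10 level included much RNA that is not annotated as coding. The form of 3901 bases annotated for nonsense-mediated decay held 39.1% and 42.0% of the gene's TPM and 72.7% and 71.5% of its expected counts. The coding form, of 1663 bases, held 27.8% and 34.6%, which is 3.38 and 3.72 TPM. Retained-intron forms made up the remaining 33.1% and 23.4%. Phf10 is also overlapped over 14562 bases by 1600012H06Rik on the opposite strand, which had 20.1 and 21.7 TPM, and 7.24% of the 31-base words of Phf10 occur in that gene. With coding forms only, Dpf1 plus Dpf3 stood above Phf10 by 5.84 and 5.66 on the log2 scale. The Phf10 side of that ratio is a single form with 97.8 and 125 expected counts.

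Dpf1, Dpf2 and Dpf3 are spliced in more than 1 way, and the tables divide the RNA between forms. The exons below were picked after the shares had been seen, because they separate the abundant forms. Capitals mark the alternative bases and lower case the adjoining exons in the GENCODE M21 transcript, on the strand of the gene (GRCm38, coordinates of the capitals).
Dpf1 short exon, chr7:29314139-29314189, plus strand: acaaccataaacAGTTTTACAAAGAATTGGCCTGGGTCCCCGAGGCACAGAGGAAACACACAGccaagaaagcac
Dpf2 short exon, chr19:5903731-5903772, minus strand: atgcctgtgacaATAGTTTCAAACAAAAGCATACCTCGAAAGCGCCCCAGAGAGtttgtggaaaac
The Dpf1 exon has 51 bases and the Dpf2 exon 42, and both numbers are multiples of 3, so neither exon shifts the reading frame.

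Among the Dpf1 forms that span this place, those with the short exon had 102.6 and 105.9 TPM and that without it 38.0 and 29.97 TPM. The exon was thus in 73.0% and 77.9% of the informative TPM (75.5% ± 3.51). The level without the exon rests on a single short form of 438 bases. That form had 238 and 219 expected counts, against 3218 and 3695 for the 2309-base form with the exon alone. The share of the exon thus depends on the measure and is higher by expected counts. Among the Dpf2 forms, that with the short exon had 51.6 and 43.8 TPM and those without it 18.2 and 15.3 TPM, so that 73.9% and 74.0% included it (74.0% ± 0.0679). Most of the Dpf2 level without the exon was a form of 2153 bases annotated for nonsense-mediated decay, with 15.2 and 12.8 TPM.

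In Dpf3 the alternative lies at the end of the transcript. An exon of 113 bases at chr12:83226268-83226380 (minus strand) belongs to the forms with the longer ending, 3135 and 2940 bases in all. Forms with this exon had 4.17 and 3.27 TPM, against 13.5 and 12.7 TPM for forms without it, a share of 23.6% and 20.4% (22.0% ± 2.25). Unlike for Dpf1 and Dpf2, every form lacking the exon was counted here, among them a form of 587 bases with 4.21 and 3.78 TPM. With 477 and 483 expected counts in all, Dpf3 had few reads to divide between its forms. The leading form, of 1296 bases, held 28.8% and 33.6% of its TPM, and 3 further forms held between 19.3% and 23.8% in each library.

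Short fragments weighed on Dpf1. The coding forms of 428 and 438 bases held 21.4% ± 1.17 and 18.4% ± 2.79 of its TPM. The coding form of 2309 bases held 42.1% and 42.4%. Forms under 1000 bases made up 44.7% and 41.9% of Dpf1 TPM but 11.5% and 10.3% of its expected counts. With forms of at least 1000 bases only, Dpf1 plus Dpf3 still stood above Phf10, by 3.84 and 3.85 on the log2 scale. The excess over Dpf2 was smaller with these forms. Dpf1 then had 103.3 and 106.35 TPM, Dpf3 13.45 and 12.23 TPM and Dpf2 86.3 and 72.6 TPM. With coding forms that excess was larger, Dpf1 having 175.8 and 172.7 TPM and Dpf2 54.6 and 46.3 TPM.

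Ss18l1 (ENSMUSG00000039086.9, chr2:180042509-180070201, plus strand) encodes CREST, a calcium-responsive coactivator needed for dendrite growth. It had 62.8 TPM in replicate 1 and 58.8 TPM in replicate 2 (60.8 ± 2.84). It has a single transcript in the tables, of 4343 bases, and 4931 and 5378 expected counts.

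Ss18 (ENSMUSG00000037013.11) encodes the homologous subunit of progenitor BAF and is the partner in the gene fusion of synovial sarcoma. It had 33.2 and 28.8 TPM (30.995 ± 3.06). The excess of Ss18l1 over Ss18 was 1.89-fold and 2.04-fold (log2 0.97 ± 0.08). This was less than for Actl6b over Actl6a or Dpf1 over Phf10 in both libraries. Ss18l1 made up 65.4% and 67.1% of their summed TPM (66.3% ± 1.17). Of the words of Ss18, 13.9% occur in the gene Gm1826, and its expected count in replicate 1 was not whole. All forms of both genes are annotated as coding.

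**Figure D2:**
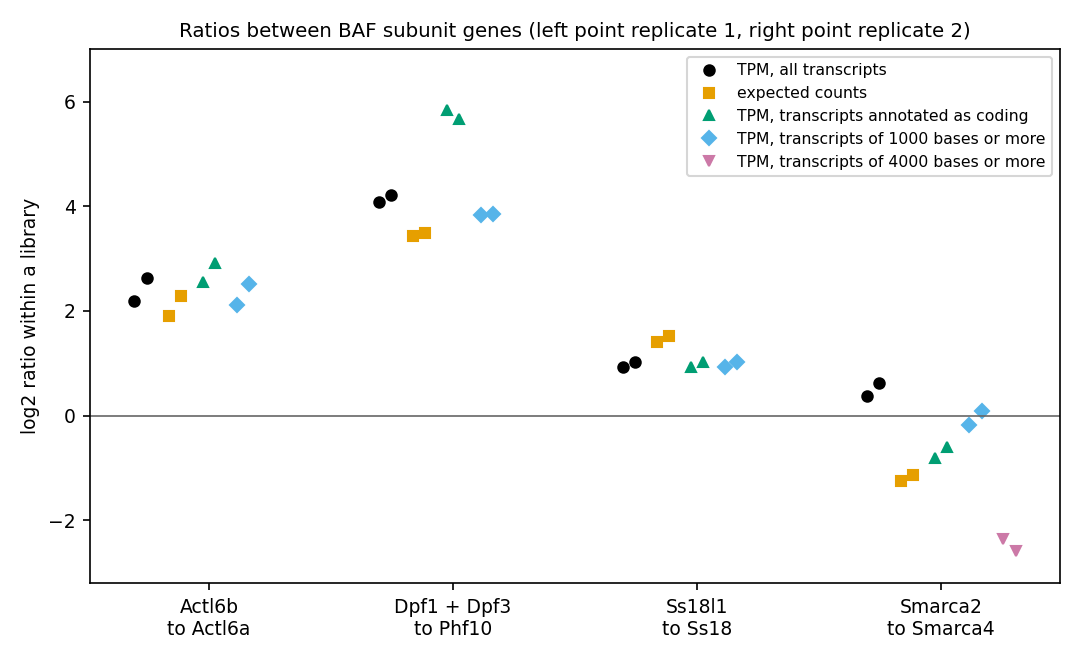
Log2 ratio within each library for the 4 main gene pairs, from all TPM, expected counts, TPM of coding forms and TPM of longer forms, with replicate 1 left and replicate 2 right at each mark. The first 3 pairs stay above 0 under every measure shown, whereas Smarca2 to Smarca4 lies at 0.38 and 0.63 from all TPM and at -2.36 and -2.59 from forms of at least 4000 bases.

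The ATPases are not exchanged as strictly as the subunits above. Smarca4 encodes BRG1, the ATPase that embryos and neural progenitors need, and Smarca2 encodes BRM, which is known to be higher in differentiated cells. Smarca2 (ENSMUSG00000024921.12, chr19:26605050-26778322, plus strand) had 150.1 TPM in replicate 1 and 166 TPM in replicate 2 (158 ± 11.4). Smarca4 (ENSMUSG00000032187.12, chr9:21616169-21704230, plus strand) had 115.5 and 108 TPM (112 ± 5.64). Taken over all transcripts, Smarca2 was 1.30-fold and 1.55-fold above Smarca4 (log2 0.50 ± 0.18).

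That direction did not hold for the long transcripts. Forms of at least 4000 bases gave 22.1 and 17.6 TPM for Smarca2, against 113.8 and 105.9 TPM for Smarca4. Smarca2 was then 5.57-fold below Smarca4 (log2 -2.36 and -2.59, mean -2.48 ± 0.16). From expected counts, which weigh long transcripts more, Smarca2 also stood below Smarca4, by log2 -1.25 and -1.13, with 4966 and 5827 counts against 11781 and 12789. From coding forms only, the ratio was -0.80 and -0.60, and from forms of at least 1000 bases it was near 0, at -0.18 and 0.10. The coding labels are those of GENCODE M21, in which 10 of the 19 Smarca2 entries have another length than in the deposited tables.

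Most of the Smarca2 TPM came from short transcripts. Forms under 2000 bases held 85.3% and 89.4% of its TPM and 52.6% and 62.7% of its expected counts. The leading entry alone had 69.3 and 80.8 TPM, which is 46.2% and 48.6% of the gene. It is 1460 bases long in the deposited tables and 2018 bases long in GENCODE M21, where it is annotated for nonsense-mediated decay, so its exact structure in the tables is not known here. In GENCODE M21 it starts at chr19:26710548, and 37 of the 46 models of Smarca2 start beyond the midpoint of the gene, this one included. The full-length coding entry, of 5858 bases in the tables, had 21.2 and 16.1 TPM.

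Smarca4 showed the opposite make-up. Its forms of at least 4000 bases held 98.5% of its TPM in both libraries, and all forms are annotated as coding. Smarca4-204, of 5405 bases, held 74.8% and 74.2% (74.5% ± 0.368), and Smarca4-202, of 6376 bases, held 23.8% and 24.3% (24.0% ± 0.354). Among the differences between these forms are 9 bases that do not shift the reading frame, shown in capitals, which lie at chr9:21686013-21686021 on the plus strand and were picked after the shares had been seen.
Smarca4 extra bases: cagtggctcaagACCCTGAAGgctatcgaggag
Forms with these bases had 29.2 and 27.7 TPM and those without them 86.4 and 79.8 TPM, a share of 25.2% and 25.8% (25.5% ± 0.366) that was nearly the same in both pools. A second difference of 3 bases gave shares of 24.1% and 24.6%.

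Set against the ATPase Smarca4, Actl6b stood 2.24-fold and 2.48-fold higher (log2 1.24 ± 0.10). This is a ratio of RNA levels and not of subunits in the complex.

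Across the members, the share of TPM from coding forms ran from all of it for Dpf3, Ss18l1, Ss18 and Smarca4 to 31.2% ± 4.81 for Phf10. Actl6b and Dpf1 had 92.7% ± 0.842 and 94.2% ± 0.200. Smarca2 had 43.5% ± 0.978, Dpf2 53.4% ± 0.537 and Actl6a 73.7% ± 3.70. Among 9747 protein-coding genes with at least 2 transcripts and at least 1 TPM, the median was 91.2% coding, and for the 9 members with at least 2 transcripts it was 92.8%. Forms under 1000 bases made up a median of 15.8% of the TPM of those members and 7.25% over all such genes.

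**Figure D3:**
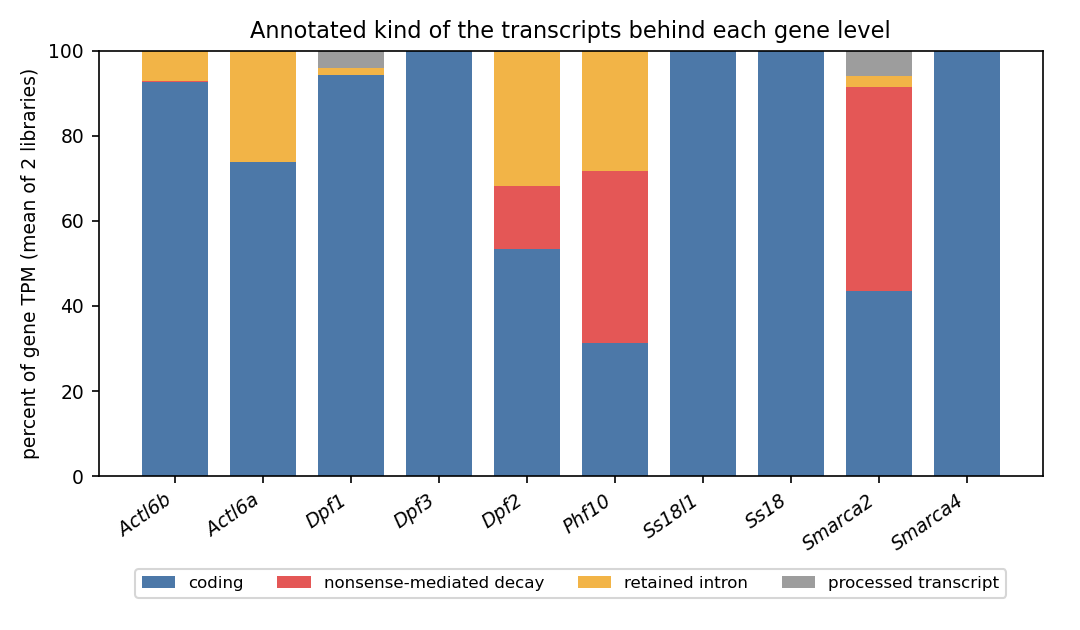
Mean percent of each gene's TPM, over both libraries, that falls on transcripts annotated in GENCODE M21 as coding, for nonsense-mediated decay, with a retained intron or as processed transcripts. Coding forms hold 92.7% of Actl6b and 31.2% of Phf10, and forms for nonsense-mediated decay hold 48.0% of Smarca2 and 40.6% of Phf10.

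Differences between pools are log2 of replicate 1 over replicate 2, from expected counts scaled by library. None of the 10 reached 1.5-fold in either direction, where 3.44% of the 14412 genes averaging 50 expected counts or more did (1.33% higher in replicate 1 and 2.12% higher in replicate 2). At 2-fold the share of all genes was 0.645%. A count of 0 among 10 is near these shares and says nothing particular of the members. All 10 passed the count limit, with 460 to 12789 expected counts. Of the members, 7 were higher in replicate 1, where 48.1% of all genes were, and 3 were higher in replicate 2, namely Actl6b, Dpf1 and Smarca2. For Smarca2 this is the direction of the gene as a whole. Its forms of at least 4000 bases were higher in replicate 1, at 22.1 and 17.6 TPM. The median absolute difference was 0.07 over the members and 0.12 over all genes, and the median difference was 0.06 over the members and -0.01 over all genes.

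Actl6a had the highest difference, at 0.29 or 1.23-fold, followed by Dpf2 at 0.20, Dpf3 at 0.16 and Ss18 at 0.16. Smarca4 and Ss18l1 each stood at 0.06 and Phf10 at 0.01. Smarca2, Dpf1 and Actl6b stood at -0.05, -0.05 and -0.08. The progenitor genes Actl6a, Phf10 and Ss18 were thus on the replicate 1 side, with a median of 0.16, though Phf10 only barely. The 4 neuronal genes lay on both sides, with a median of 0.00, and Dpf3 among them lay as far to the replicate 1 side as Ss18. Of 20 other BAF, PBAF and ncBAF subunits, 16 were also higher in replicate 1, where 48.1% of all genes were.

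Markers of progenitors moved in the same direction between the pools. Of the 10 progenitor markers, 8 were higher in replicate 1, where 48.1% of all genes were. The 10 had a median difference of 0.39 and summed levels of 613 and 535 TPM. Sox2, a progenitor transcription factor, had 16.4 and 10.2 TPM, and Mki67, a gene of dividing cells, had 3.65 and 2.27 TPM, both past 1.5-fold. Of all genes tested, 1.33% were higher in replicate 1 by 1.5-fold or more. Hes1 and Hes5, Notch target genes, were lower in replicate 1. The 10 neuron markers were split 5 to 5, with sums of 5776 and 5861 TPM and a median of -0.04. The part of these markers in the difference of Actl6a was not tested.

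Markers of other cell types differed as well. All 5 astrocyte markers were lower in replicate 1, with sums of 463 and 822 TPM and a median of -0.96. Past 1.5-fold were 4 of them, among them Gfap, which with 11 and 56 expected counts falls below the count limit. All 4 markers of the oligodendrocyte lineage were also lower in replicate 1, with sums of 136 and 178 TPM. Of all genes tested, 48.1% were higher in replicate 1, and 2.12% were higher in replicate 2 by 1.5-fold or more. The 4 microglia markers summed to 67.6 and 86.9 TPM and the 3 endothelial markers to 137 and 131 TPM. The 3 erythroid markers summed to 5408 and 4929 TPM and the 2 choroid plexus markers to 430.3 and 361 TPM. No marker was at 0 in either library, the lowest being Gfap at 0.23 and 1.02 TPM. The 4 midbrain markers were all present, among them Otx2 at 56.3 and 64.5 TPM and En1 at 4.99 and 6.34 TPM. The part of these cell types in the members' values was not tested.

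**Figure D4:**
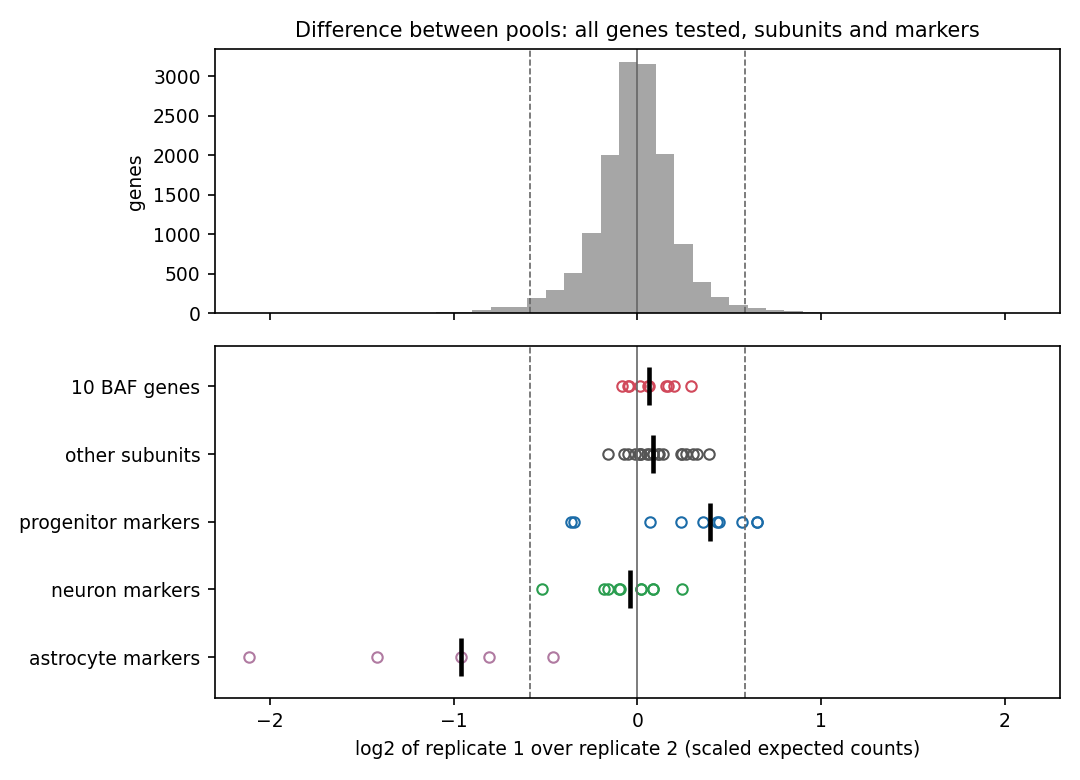
Log2 of replicate 1 over replicate 2: a histogram of all 14412 genes above (12 of them outside the axis) and, below it, a circle for each gene of 5 lists with a bar at the list's median. Dashed lines mark 1.5-fold. All 10 BAF genes, Dpf2 and the ATPases included, lie inside the dashed lines, whereas 2 progenitor markers and 4 astrocyte markers lie outside them. The astrocyte marker Gfap falls below the count limit and is not in the histogram.

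The other subunits of the BAF, PBAF and ncBAF complexes give the setting of the exchange. All 20 were detected at 1 TPM or more, 17 of them at 10 TPM or more. None reached 1.5-fold between the pools, where 3.44% of all genes tested did, so this count says nothing particular of them. In replicate 1, 16 were higher, where 48.1% of all genes were, with a median of 0.08. The core subunits Smarce1 and Smarcb1 were the highest, at 276 and 226 TPM and at 237 and 219 TPM. The scaffold gene Smarcc2, which encodes BAF170, had 138 and 129 TPM, against 54.4 and 42.4 TPM for its paralogue Smarcc1, which encodes BAF155 (log2 1.48 ± 0.18). Smarcd3, which encodes BAF60c, had 147 and 161 TPM, against 76.2 and 68.7 TPM for Smarcd1, which encodes BAF60a (log2 1.09 ± 0.20).

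Arid1 and Bcl11 paralogues were also unequal. Arid1b had 11.2 and 10.9 TPM, against 30.5 and 23.9 TPM for Arid1a, both large DNA-binding subunits of canonical BAF (log2 -1.29 ± 0.22). Bcl11b had 19.0 and 19.8 TPM, against 84.2 and 89.1 TPM for Bcl11a, both zinc finger proteins of neurons (log2 -2.16 ± 0.02). Of the PBAF subunits, Pbrm1 had 107.8 and 97.4 TPM, Brd7 55.1 and 47.6 TPM and Arid2 17.95 and 14.9 TPM. All 3 lay above the PBAF member Phf10 in both libraries. Of the ncBAF subunits, Brd9 had 55.9 and 54.99 TPM, while Bicra had 6.33 and 4.70 TPM and Bicral 7.71 and 7.41 TPM. The remaining 4, Smarcd2, Bcl7a, Bcl7b and Bcl7c, lay between 5.92 and 36.2 TPM.

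**Figure D5:**
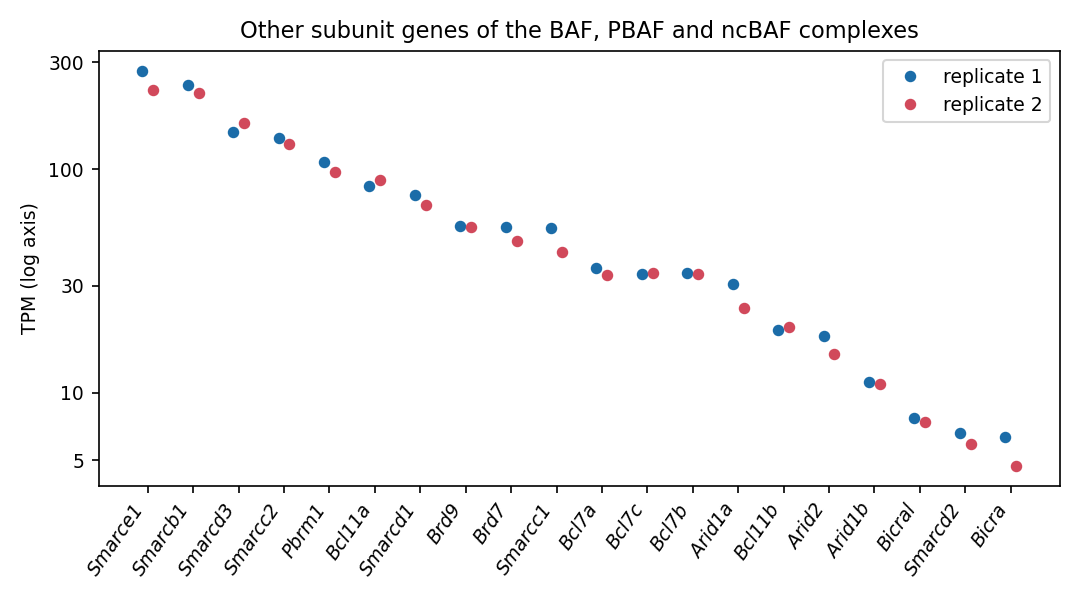
TPM of 20 further subunit genes on a log axis, ordered by mean level, with a point for each library. Smarce1 is highest at 276 and 226 TPM and Bicra lowest at 6.33 and 4.70 TPM, and Smarcc2 and Smarcd3 lie above their paralogues Smarcc1 and Smarcd1.

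The splicing regulators Ptbp2 and Ptbp1 are another pair known to be exchanged in neurons. Ptbp2, the splicing repressor of young neurons, had 161 and 148 TPM, against 55.01 and 48.9 TPM for Ptbp1, the progenitor and glial form (log2 1.57 ± 0.03). This excess lay between that of Ss18l1 over Ss18 and that of Actl6b over Actl6a.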

How the data were processed

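Total RNA-seq of 2 midbrain pools was used as deposited: a gene and a transcript table for each. Per the deposited readme, reads were aligned to mm10 and quantified with GENCODE M4; which programs were used, and whether with strand, is not given in the sources used here. Per the file headers, the deposited expected counts are unnormalized estimates, the TPM values deposited by the authors are corrected for effective length with spike-ins in the total, and the deposited isoform share is a percent of gene TPM. Credibility intervals of TPM are deposited without their level. They are given for each library separately and do not cover the spread between pools. Names, types and coordinates came from GENCODE M21 (GRCm38, the same assembly as mm10) by Ensembl identifier without version, for 42462 of 43346 genes. A transcript was named at a share of at least 10% in both libraries with equal length in both releases; the leading entries of Smarca2 and other entries given by their length are exceptions.

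Depth was 31830355 and 36576263 expected counts in replicates 1 and 2, with 23524 and 23769 genes counted and 3.74% and 5.47% of TPM on spike-ins. Ratios are of TPM within a library. Differences between pools used expected counts plus 0.5, scaled by TMM (edgeR 4.0.16), or for comparison by DESeq2 1.42.0 size factors on rounded counts, for genes with a mean of at least 50 counts. With 1 group of 2 pools, SD is the spread of these pools and no p-value was computed. Members, lists and alternatives were chosen with earlier results of these data known. All members could be named, as could any gene of the lists of other subunits, regulators of the exchange and cell type markers, and the 3 coding genes nearest in level to Actl6b and to Actl6a. Alternatives were other measures of the ratios, other scalings, no filter on low counts, and each pool alone.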

Additional observations from a re-analysis of the deposited data

How the results depend on the processing

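With 2 pools, precision is limited by their number. The ratios Actl6b to Actl6a, Dpf1 plus Dpf3 to Phf10 and Ss18l1 to Ss18 kept their direction under every alternative run. Log2 Actl6b to Actl6a was 2.41, with 2.09 from expected counts, 2.74 from coding forms, and 2.19 to 2.63 with each pool left out in turn. Log2 Dpf1 plus Dpf3 to Phf10 was 4.14, with 3.46 from expected counts, 5.75 from coding forms, 4.03 after adding 1 TPM, 3.85 from forms of at least 1000 bases, and 4.07 to 4.21 with a pool left out. Log2 Ss18l1 to Ss18 was 0.97, with 1.46 from expected counts and 0.92 to 1.03 with a pool left out. Log2 Smarca2 to Smarca4 was 0.50, with 0.38 to 0.63 with a pool left out, and reversed to -1.19 from expected counts, -0.70 from coding forms and -2.48 from forms of at least 4000 bases. From forms of at least 1000 bases it was -0.041 and had opposite signs in the pools (-0.18 and 0.10). These length limits were chosen after seeing the data. The cause was not tested.

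No member reached 1.5-fold under any of the 3 other scalings (DESeq2 size factors, total counts, TPM without spike-ins), although Dpf1, higher in replicate 2 by counts, was higher in replicate 1 by TPM. Of all genes, 496 reached 1.5-fold, 493 with DESeq2 size factors or total counts, and 6848 without the filter on low counts. The posterior mean moved the TPM of 2 of 10 members and the leading share of 6 of 10 by more than the spread between pools. No paired analysis was possible because there is 1 group.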
